A study of Mus musculus with 2 samples.

Results

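The olfactory receptor genes are the largest gene family of the mouse genome and stand in clusters on most chromosomes. Here they are the 1128 protein-coding genes on chromosomes 1 to 19 whose symbol starts with Olfr in the GENCODE M21 annotation of mm10, out of 20807 protein-coding genes on these chromosomes. They carry 1127 symbols, since 1 symbol is given to 2 gene records. Members whose bodies lay within 500 kb of a neighbour were joined, which gave 44 clusters of at least 2 members and 9 single genes on 17 chromosomes. The binding data are 1 list of peaks from chromatin immunoprecipitation (ChIP-seq) of H1t in germ cells isolated from testes of 6-week-old ICR mice, with an in-house rabbit polyclonal antibody. An input library of the same cells is part of the series and was not analysed here. There is 1 library and no replicate, so every value below describes this library, no test was possible, and read depth is unknown. The isolated cells mix stages of spermatogenesis, and the labels do not give how many animals were pooled.

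Olfactory receptors are G protein-coupled receptors that sense odorants in the nose. Each is usually encoded by a single coding exon, often with a non-coding exon upstream of it, and each mature olfactory neuron transcribes a single receptor allele while the others stay in heterochromatin. In other tissues the genes are silent for the most part, although transcripts of some receptors are known from testis and sperm. H1t is a linker histone made in male germ cells from meiosis onwards. Linker histones bind the nucleosome where DNA enters and leaves it.

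Within the clusters most peaks lay between genes, and few lay on the receptor genes. The spans from the first to the last member of each cluster, with the single genes, took 30.7 Mb and held 1280 of the 72438 peaks on chromosomes 1 to 19. Their density was 41.7 peaks per Mb, against 30.1 per Mb over chromosomes 1 to 19, a ratio of 1.38. Sequence in no annotated gene held 1097 of the 1280 midpoints, 85.7% of the peaks on 62.8% of the length. Bodies and start regions of the receptor genes held 13 midpoints at starts and 76 in the rest of the bodies.

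Peaks on coding sequence were rare. A peak overlapped the coding sequence of only 3 of 1128 members by at least 1 bp (0.266%), where 31% of all coding genes on these chromosomes had such an overlap. The 3 are Olfr1344, with a peak of score 65.1 over 625 of its 963 coding bases, Olfr523, with a score of 69.4 over 611 of 951 bases, and Olfr222, with a score of 61.2 over 530 of 954 bases. The score, a value the authors gave each peak, runs from 50 upwards, with a median of 73.8 on these chromosomes, so all 3 peaks were below the median. Below, 300 coding bases from the middle of each overlap stand beside the same stretch of the nearest member of its cluster that had no peak in its body. They are printed in the direction of the gene, with each CG dinucleotide, the base pair step that can carry DNA methylation, in capitals. The stretches are chr7:6440065-6440364 (plus strand), chr7:140176260-140176559 (plus) and chr11:59571009-59571308 (minus) for the genes with a peak, and chr7:6474275-6474574 (plus), chr7:140162493-140162792 (minus) and chr11:59589358-59589657 (minus) for Olfr1346, Olfr522 and Olfr223, all in mm10 and from the GENCODE transcripts.
Olfr1344, under a peak: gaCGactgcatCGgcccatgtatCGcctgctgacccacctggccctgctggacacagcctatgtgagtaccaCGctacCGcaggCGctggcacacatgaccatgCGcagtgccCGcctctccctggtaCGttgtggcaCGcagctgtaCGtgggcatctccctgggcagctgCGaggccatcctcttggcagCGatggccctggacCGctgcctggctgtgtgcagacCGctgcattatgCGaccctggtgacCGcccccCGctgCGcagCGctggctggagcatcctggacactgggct
Olfr1346, no peak: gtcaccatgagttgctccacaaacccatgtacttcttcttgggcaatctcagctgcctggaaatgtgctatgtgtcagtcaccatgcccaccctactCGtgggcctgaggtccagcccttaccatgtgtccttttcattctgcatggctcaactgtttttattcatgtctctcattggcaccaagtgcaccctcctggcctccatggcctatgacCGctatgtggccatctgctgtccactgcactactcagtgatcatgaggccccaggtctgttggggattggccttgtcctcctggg
Olfr523, under a peak: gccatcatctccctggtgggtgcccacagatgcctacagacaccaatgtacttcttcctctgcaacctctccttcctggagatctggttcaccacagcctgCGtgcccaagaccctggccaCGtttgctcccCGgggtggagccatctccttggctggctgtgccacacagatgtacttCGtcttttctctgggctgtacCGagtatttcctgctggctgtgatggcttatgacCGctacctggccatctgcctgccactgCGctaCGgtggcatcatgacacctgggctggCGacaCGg
Olfr522, no peak: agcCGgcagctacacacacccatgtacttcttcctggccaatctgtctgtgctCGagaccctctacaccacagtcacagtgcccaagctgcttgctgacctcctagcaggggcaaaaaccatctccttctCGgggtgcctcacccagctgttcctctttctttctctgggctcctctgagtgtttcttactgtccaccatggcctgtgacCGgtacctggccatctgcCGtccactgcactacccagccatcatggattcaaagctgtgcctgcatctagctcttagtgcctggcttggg
Olfr222, under a peak: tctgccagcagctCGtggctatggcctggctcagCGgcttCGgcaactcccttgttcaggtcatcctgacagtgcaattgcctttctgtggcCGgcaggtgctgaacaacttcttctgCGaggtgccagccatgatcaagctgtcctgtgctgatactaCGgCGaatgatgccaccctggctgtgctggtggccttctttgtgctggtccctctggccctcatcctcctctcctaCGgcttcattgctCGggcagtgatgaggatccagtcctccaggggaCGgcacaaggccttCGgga
Olfr223, no peak: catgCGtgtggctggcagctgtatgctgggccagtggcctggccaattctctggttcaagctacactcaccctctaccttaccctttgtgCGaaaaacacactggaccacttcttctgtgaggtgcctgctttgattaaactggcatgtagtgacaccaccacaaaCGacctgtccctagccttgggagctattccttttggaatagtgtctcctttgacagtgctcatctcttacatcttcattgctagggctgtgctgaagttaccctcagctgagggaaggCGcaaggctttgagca

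The stretch of Olfr1344 held 20 CG dinucleotides against 2 in that of Olfr1346, and its share of G and C bases (GC content) was 66.3% against 53.7%. The stretch of Olfr523 held 10 against 5 in Olfr522, with GC contents of 59.0% and 56.3%. That of Olfr222 held 11 against 4 in Olfr223, with 59.3% and 51.3%. In each pair the stretch under a peak had the more CG dinucleotides, but the GC contents of Olfr523 and Olfr522 were close. Over the whole coding sequence Olfr1344 ranked 2 of 1128 members by GC content (61.2%), Olfr222 ranked 11 (56.6%) and Olfr523 ranked 25 (54.4%). The member with the highest coding GC content, Olfr94 (61.6%), had no coding peak, and of the 20 members with the highest values 2 had a coding peak.

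Coding sequences of the family are poor in G and C compared with other genes, and the counts were therefore also set beside genes of like composition. The median coding GC content was 43.9% in members and 52.7% in other coding genes, and the median number of CG dinucleotides per kb of coding sequence was 7.41 against 28.6. All coding genes on chromosomes 1 to 19 were put in 5 classes of equal size by coding GC content. In the lowest class, up to 45.7%, a peak midpoint lay in the coding sequence of 0 of 720 members and of 55 of 3442 other genes (1.6%). In the next 2 classes the members had 0 of 274 and 0 of 107, beside 4.96% and 12.9% of other genes. In the classes above, 2 of 20 and 1 of 7 members had a coding peak, beside 27.7% and 48.8%. Coding sequences of members are short, so densities were compared too. In the lowest 3 classes members had 0 midpoints in 678, 259 and 101 kb of coding sequence, beside 9.46, 27.9 and 79.0 per Mb in other genes. In the upper 2 classes they had 2 midpoints in 19.1 kb (104.5 per Mb) and 1 in 6.96 kb (143.7 per Mb), beside 206 and 444 per Mb, and so few midpoints give no firm order.

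Start sites of the receptor genes were also nearly free of peaks. A midpoint lay within 1 kb of the annotated start of 13 of 1128 members (1.15%), against 24.2% of all coding genes on these chromosomes. No midpoint fell within 500 bp of a member start on either side. In the first 500 bp downstream, where coding genes as a whole had 302 midpoints per Mb, the members had 0. From 5 to 1 kb upstream, density was 36.3 per Mb around members and 23.3 around all coding genes. From 1 to 5 kb downstream, which lies largely within member bodies, it was 7.09 against 30.6. The median distance from a start to the nearest midpoint was 14879 bp for members and 9783 bp for all coding genes, with lower quartiles of 7320 and 1129 bp. Sorted by the GC content of the longest transcript, 898 members fell in the lowest of 5 classes (up to 42.6%), where 12 of them had a start-site peak (1.34%) and 579 of 3264 other genes did (17.7%).

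**Figure D1:**
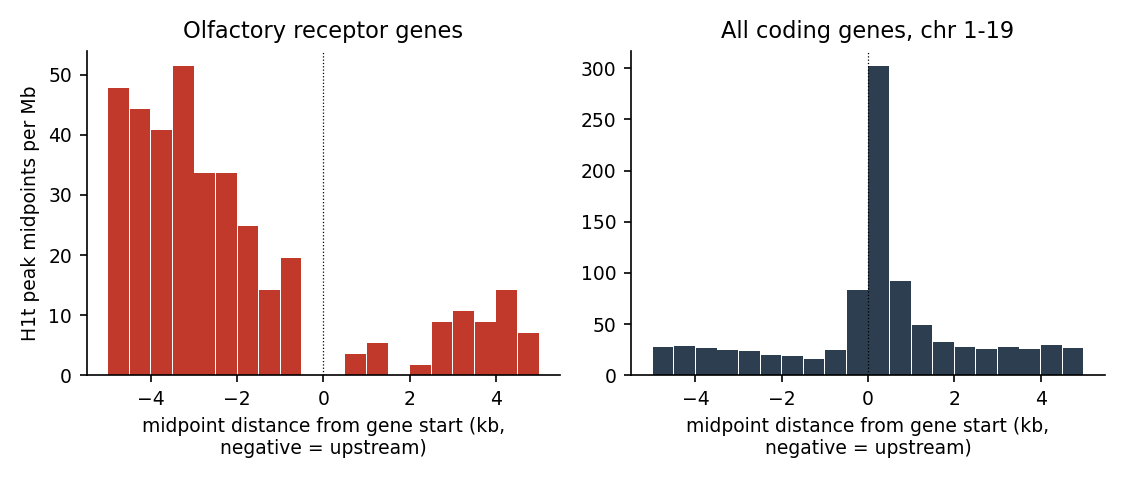
H1t peak midpoints per Mb in bins of 500 bp from 5 kb upstream to 5 kb downstream of the annotated start, for the 1128 olfactory receptor genes (left) and all 20807 coding genes (right), on different vertical scales. The receptor genes have 0 midpoints in the bins on both sides of the start, where coding genes as a whole reach 302 per Mb.

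The 13 start-site peaks were of ordinary height and lay to 1 side. Their scores ran from 50.7 to 175.11 with a median of 78.7, and 7 of the 13 were above the list's median. In 11 members the midpoint was upstream, by 549 bp (Olfr77) to 972 bp (Olfr203). The other 2, Olfr338 and Olfr907, had it 663 and 734 bp downstream, in an intron. The highest score belonged to Olfr971 on chromosome 9, with a peak at chr9:39835696-39836723 whose midpoint was 667 bp upstream. It was followed by Olfr378 on chromosome 11, with 103.53 at 869 bp upstream. The remaining start-site peaks were those of Olfr1298 and Olfr1316 in the same chromosome 2 cluster, Olfr596, Olfr601 and Olfr683 on chromosome 7, Olfr834 on chromosome 9, and Olfr1475 on chromosome 19. The 3 members just outside the 1 kb limit were Olfr479, Olfr54 and Olfr761, with midpoints 1118, 1164 and 1202 bp away. Within the limit, Olfr203, Olfr683 and Olfr601 were the farthest, at 972, 954 and 943 bp.

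The annotated start is uncertain for much of the family. RefSeq gave a start window, from 250 bases before to 50 after its own start, for 925 of the 1127 symbols (929 windows). RefSeq's start differed from that of GENCODE by a median of 2725 bp and by over 1 kb in 717 windows. For Olfr523, RefSeq's start is the first base of the coding sequence. How many others are coding starts was not counted, so the windows need not lie at transcript starts. A peak overlapped 1 of the 929 windows (0.108%), that of Olfr523, against 19.6% of windows of all coding genes. This peak is the one over the coding sequence of Olfr523 given above. The windows of members had a median of 1 CG dinucleotide and a GC content of 35.0%, against 14 and 57.3% over all coding genes. None of 3 start definitions gave the members more than 2.04% with a peak within 1 kb, from 9 members with coding starts to 23 with any annotated transcript start, beside 21.2% and 31.6% of all coding genes.

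Gene bodies held few peaks, and these were mostly in introns. A midpoint lay in the body of 50 members (4.43%), against 48.9% of all coding genes. Member bodies are short, with a median of 5995 bp against 17629 bp, so density is the fairer measure. It was 10.4 peaks per Mb of member body and 28.03 per Mb of all coding gene bodies. Introns of members had 54 midpoints at 13.6 per Mb, against 22.0 in introns of all coding genes. UTRs and other non-coding exons had 22 at 8.57 per Mb, against 52.5. Coding sequence had 3 at 2.82 per Mb, against 147.73. The order of the 3 places was therefore reversed: introns were the densest part of receptor genes and coding sequence the densest part of coding genes as a whole. However, 17 of the 54 intron midpoints lay in the 2 members over 100 kb. The order of introns and non-coding exons without these 2 was not computed.

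A few genes with long annotated bodies supplied much of the intronic signal. Olfr643 and Olfr56, the only members over 100 kb, had 11 and 6 body peaks, 17 of the 79 counted. A peak in 2 overlapping members counts for both here, and without that double count and the 2 midpoints within 1 kb of a start the bodies held 76. The annotated intron of Olfr643, in the chromosome 7 cluster next to the beta-globin genes, spans other receptor genes, and 1 of its peaks (score 196.18) also lies in a non-coding exon of Olfr639. Its 2 strongest peaks, chr7:104029128-104030295 (569.23) and chr7:104121682-104125425 (559.27), are the strongest inside any member body. By the best body peak of each gene, Olfr212 on chromosome 6 followed with 279.85 and Olfr539 on chromosome 7 with 229.63. Olfr18 on chromosome 9 had 5 intronic peaks in 23943 bp, with scores up to 158.16, and Olfr165 on chromosome 16 had 2, of 144.37 and 144.19.

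By the share of the body under peaks, Olfr839-ps1 led with 23.6%, followed by Olfr1344 (21.4%), Olfr18 (18.6%), Olfr907 (15.1%), Olfr106-ps (14.7%) and Olfr338 (14.2%). Olfr212, Olfr775, Olfr523 and Olfr657 lay between 12.3% and 12.9%. Over all members 0.888% of body sequence lay under peaks, where the spans as a whole had 3.52% and chromosomes 1 to 19 had 2.45%. Olfr839-ps1 and Olfr106-ps are annotated as coding here in spite of their pseudogene names.

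**Figure D2:**
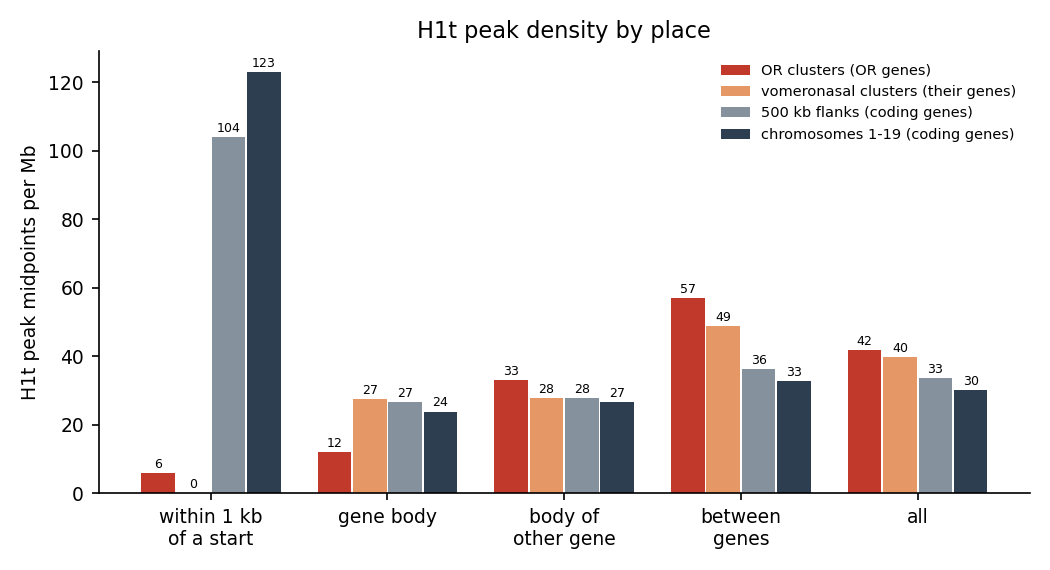
H1t peak midpoints per Mb by place, for the spans of olfactory receptor (OR) genes, vomeronasal receptor clusters, the 500 kb flanks of the OR clusters, and chromosomes 1 to 19, where starts and bodies are those of the genes named in the legend. Sequence between genes is highest in OR clusters (57.0 per Mb), and their start regions (5.88 per Mb) are far below those of coding genes as a whole (123 per Mb).

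Sequence between genes was where the clusters stood farthest above the genome. Each midpoint was given to the first matching place among member start regions, member bodies, bodies of other annotated genes, and sequence between genes. In the spans, start regions had 13 peaks at 5.88 per Mb on 7.20% of the length, and bodies 76 at 11.9 per Mb on 20.8%. Bodies of other genes, among them pseudogenes and non-coding RNA genes, had 94 at 33.1 per Mb. Sequence between genes had 1097 at 57.0 per Mb. Over chromosomes 1 to 19 the places, taken for all coding genes, had 123, 23.8, 26.7 and 32.6 per Mb. The sets are not fully alike. In the spans, other genes include coding genes that are not receptors, and start regions of these were not set apart. Over chromosomes 1 to 19, other genes are only those not annotated as protein-coding. The 500 kb on each side of the spans had 36.2 per Mb between genes and 33.5 in all, so the between-gene density fell toward the genome's value outside the clusters. In this pooled value each of the 53 clusters and single genes has the same flank length, whatever its size. Flanks that overlap were counted more than once. Median scores between genes were close, at 80.1 in the spans and 77.4 on these chromosomes, and median widths were 741 and 728 bp.

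Peak density rose over the first few kb from the receptor genes. Density was 10.4 per Mb inside a member body and 14.1 within 1 kb outside it. It was 26.4 at 1 to 2 kb, 51.0 at 2 to 5 kb, 67.6 at 5 to 10 kb and 69.4 at 10 to 20 kb. Beyond that it fell to 53.3 at 20 to 50 kb and 35.4 over 50 kb from a member. Around all coding genes the steps from the body outwards were 27.4, 28.7, 15.5, 22.3, 30.8, 31.4, 32.5 and 33.7 per Mb. Within 1 kb of a body the density was 9.96 upstream and 18.5 downstream, with 11 and 20 midpoints. At 5 to 10 kb it was 63.2 upstream and 51.9 downstream. The values by side are a separate count and do not split the densities by nearest body. At 5 to 10 kb they cover 4.48 Mb upstream and 4.30 Mb downstream, beside 5.10 Mb by nearest body.

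**Figure D3:**
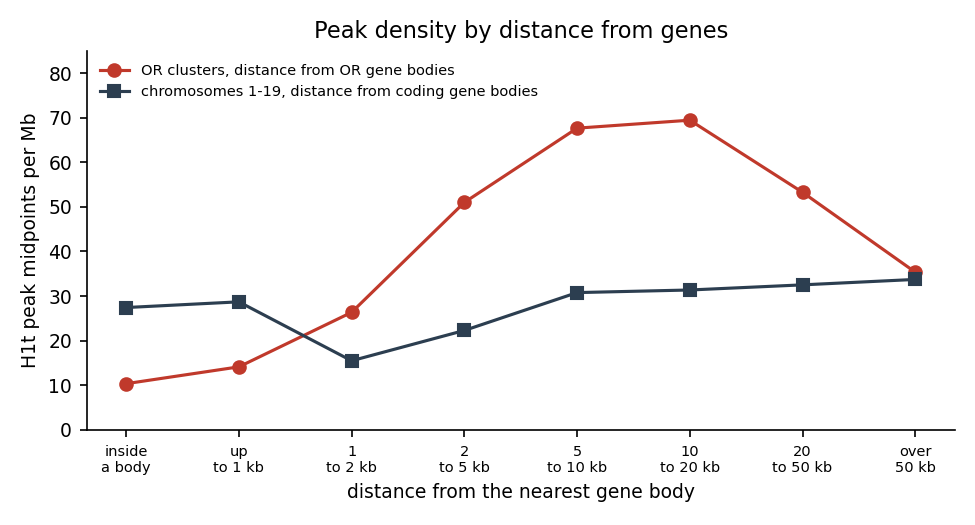
H1t peak midpoints per Mb by distance from the nearest olfactory receptor (OR) gene body within the OR spans (circles), and from the nearest coding gene body over chromosomes 1 to 19 (squares). Around OR genes density rises from 10.4 per Mb inside bodies to 69.4 per Mb at 10 to 20 kb, while around coding genes it stays between 15.5 and 33.7.

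Neighbours that stood close together rarely had a peak between them. There were 1058 gaps between adjacent members, with a median of 14.3 kb, and 440 of them (41.6%) held a peak. Of the 186 gaps under 5 kb, 5 did (9.63 peaks per Mb). Of the 200 gaps of 5 to 10 kb, 36 did (32.2 per Mb), and of the 301 gaps of 10 to 20 kb, 130 did (52.7 per Mb). Gaps of 20 to 50 kb had 58.4 per Mb, and gaps over 50 kb 50.5 per Mb with a peak in 73 of 77. A wider gap has more room for a peak, so the densities rather than the shares compare the classes. Gaps between genes that point toward each other had 43.2 peaks per Mb, gaps between genes that point away from each other 52.4, and gaps between genes in the same direction 53.5.

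Within 10 kb of its body, 514 of 1128 members had a peak (45.6%), against 69.9% of all coding genes. The window includes the body, which is shorter in members (median 5995 bp against 17629 bp), so the shares are not of equal lengths. At 5 to 10 kb from a body, density was higher around members, 67.6 against 30.8 per Mb. Most of the 514 members had few peaks: 263 had 1 and 131 had 2. Besides Olfr643 (11), Olfr18 (7) and Olfr56 (6), the members with the most were Olfr472 on chromosome 7 (7), then Olfr1313 on chromosome 2 and Olfr773 on chromosome 10 (6 each). Olfr472, Olfr1313 and Olfr773 had 0 peaks in their bodies, so all of theirs lay outside. Olfr1274-ps, Olfr1314, Olfr1318 and Olfr165 were among those with 5.

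The large clusters differed widely in density but shared the contrast between genes and gaps. The 23 clusters of at least 10 members held 1024 of the 1128 members. Their density ran from 14.1 to 86.7 peaks per Mb with a median of 42.9, and 20 of the 23 were denser than their own chromosome. Their flanks had a median of 28 per Mb and ran from 13 to 54, and 20 of 23 clusters were denser than their flanks. For 2 of these the values were nearly equal, with 50.2 against 50 on chromosome 6 (Olfr458 to Olfr47) and 17.05 against 17 on chromosome 1 (Olfr433 to Olfr220). Sequence between genes was denser than that of the same chromosome in 21 of 23, with a median of 64.6 per Mb. Member starts and bodies together had a median of 5.19 per Mb, with 0 peaks in 8 clusters, and were below the density between genes in all 23. They were below the density of the whole chromosome in 22, the exception being the chromosome 9 cluster from Olfr24 to Olfr18 (37.8 against 27.5 per Mb), which holds Olfr18 and Olfr839-ps1. Of the 23 clusters, 15 had no member with a start-site peak.

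The densest clusters were those on chromosome 10 from Olfr1358 to Olfr57 (86.7 per Mb) and chromosome 7 from Olfr522 to Olfr541 (82.5). They were followed by chromosome 7 from Olfr467 to Olfr519 (70.2), chromosome 11 from Olfr20 to Olfr412 (68.9) and chromosome 10 from Olfr9 to Olfr827 (59.6). The first 2 lay in dense surroundings, with 54 and 43 peaks per Mb in their flanks. The cluster from Olfr467 to Olfr519 did not: its 42 members stood in 1.08 Mb with 76 peaks, all 76 between genes, and its flanks had 19 per Mb. The cluster from Olfr20 to Olfr412 was similar, with 63 of 70 peaks between genes and 22 per Mb in its flanks.

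The sparsest cluster was on chromosome 13 from Olfr1370 to Olfr1359, with 14.1 peaks per Mb and 9 peaks in all, none of them at a member. Its flanks had 33 per Mb, and 24 Hist1 genes, of the major histone gene cluster, lie in its span and flanks. Chromosome 1 from Olfr433 to Olfr220 had 17.0 per Mb, as in its flanks. Chromosome 11 from Olfr30 to Olfr311 had 25.6, below its flanks (34), chromosome 14 from Olfr722 to Olfr750 had 28.8, and chromosome 19 from Olfr1417 to Olfr1505 had 30.1, below its flanks (44). Over the 23 clusters, peak density had no clear relation to the number of members per Mb (Pearson r = -0.16, Spearman rho = -0.13) and a weak positive one to the density of the flanks (r = 0.40, rho = 0.29). These describe clusters of 1 library that share chromosomes and depth, and no p is given.

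**Figure D4:**
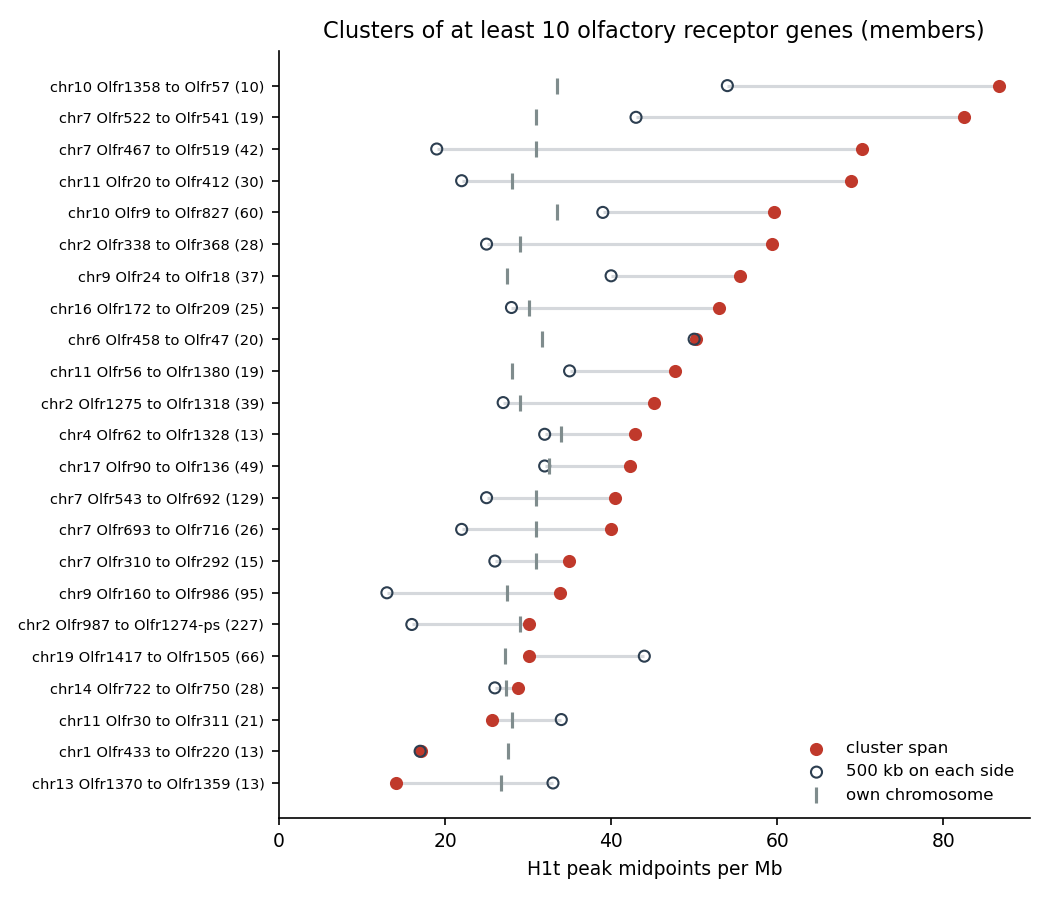
H1t peak midpoints per Mb in each of the 23 clusters of at least 10 olfactory receptor genes (filled), in the 500 kb on each side (open) and on the whole chromosome (tick), ordered by cluster density, with the number of members in brackets. Densities run from 14.1 to 86.7 per Mb, and 20 clusters lie above their flanks.

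The largest cluster, on chromosome 2 from Olfr987 to Olfr1274-ps, packs 227 members into 5073 kb. It had 153 peaks at 30.2 per Mb, close to the 29.0 of its chromosome but above the 16 of its flanks. Of these, 140 lay between genes and 7 in member bodies, and 0 of 227 members had a start-site peak. Its longest stretch without a midpoint was 333 kb and held 15 whole members. This was the longest such stretch in any of the 53 clusters and single genes. The chromosome 9 cluster from Olfr160 to Olfr986, with 95 members, followed with a stretch of 305 kb that held 13 members. It had 33.9 peaks per Mb against 13 in its flanks.

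The second largest cluster, on chromosome 7 from Olfr543 to Olfr692, surrounds the beta-globin genes and is known as the home of the class I receptors, the more fish-like branch of the family. Its 129 members had 3 start-site peaks (2.33%) and 6 had a body peak (4.65%). The 999 other members had 10 (1.001%) and 44 (4.40%). Per length of body the cluster had 18.5 peaks per Mb against 9.27 in the others, and 11 of its 17 body peaks were those of Olfr643. Its density of 40.4 peaks per Mb was near the median of the large clusters, with 85 of 117 peaks between genes at 54.9 per Mb. The cluster linked to the major histocompatibility complex on chromosome 17, from Olfr90 to Olfr136, had 42.3 per Mb, with 49 of 53 peaks between genes. Groups without any peak were small: 12 of the 53, with 20 members in all and at most 3 members in 77.0 kb.

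**Figure D5:**
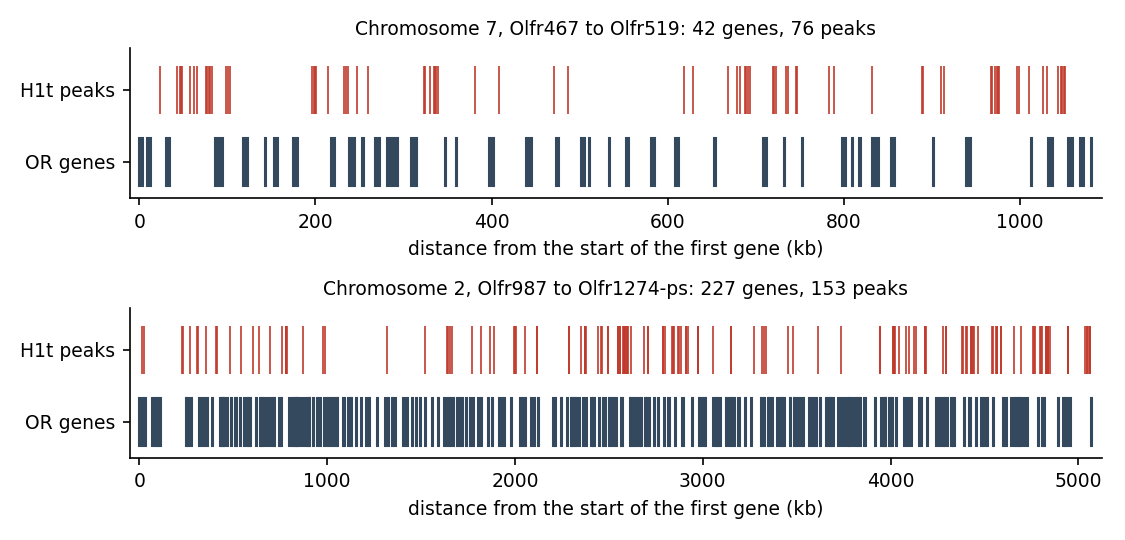
Positions of olfactory receptor (OR) genes (dark blocks, lower row) and H1t peak midpoints (red lines, upper row) in a dense chromosome 7 cluster and the largest cluster, on chromosome 2, by distance from the start of the first gene. All 76 midpoints of the upper map lie between genes, and 140 of the 153 of the lower one do.

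Of the 5 strongest peaks in the spans, 3 lay between genes and 2 in a member body. The highest score, 597.21, belonged to a peak of 3994 bp at chr6:40556605-40560598, 3551 bp from Olfr461, which ranked 122 among the peaks of these chromosomes. The next were chr10:130042218-130045554 (582.69), 8815 bp from Olfr821, and chr9:40042478-40046997 (569.98), 14360 bp from Olfr981, with widths of 3337 and 4520 bp. They were followed by the 2 in Olfr643 given above, 1168 and 3744 bp wide. In all, 27 of 1280 peaks were at least 2 kb wide (2.11%), against 1.82% on chromosomes 1 to 19. Sequence copy number was not measured at these sites, and their repeat content was not analysed here.

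Receptors that have been studied individually were also looked up. Olfr16, a receptor known from testis and sperm, had 0 peaks within 10 kb, and its nearest midpoint was 14516 bp from its body. Olfr160, a long-used model of receptor choice, had its nearest midpoint 18881 bp away. Olfr544 and Olfr558, class I receptors also found outside the nose, had theirs 24780 and 23255 bp away. Olfr78, a fatty acid receptor also found in the carotid body and kidney, had 2 peaks within 10 kb, the nearest 2587 bp away. Olfr73, a eugenol receptor, also had 2, with the nearest 1653 bp from its start. Olfr1507 had 2, Olfr2 and Olfr17 had 1 each, and none of these 9 had a peak in its body or within 1 kb of its start. Over all members only 4.43% had a body peak and 1.15% a start-site peak. The 9 genes are therefore not set apart from the family by this. Olfr151 was on the same list and was not found under that symbol.

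Similar receptor families gave the same start-site result, without a test of the difference. Vomeronasal receptors, which sense pheromones, had no start-site peak in any of 329 genes. Their clusters had 48.8 peaks per Mb between genes and 39.7 in all, against 57.0 and 41.7 for olfactory receptors. Type 1 vomeronasal genes, which have a single coding exon like olfactory receptors, had 7.04 peaks per Mb of body, and type 2 genes, which have several, 33.3. Of the 15 trace amine receptors, a small family of amine sensors in the nose, 0 had a start-site or body peak. Of the 271 Olfr pseudogenes, 5 had a start-site peak (1.85%), 3 a body peak (1.11%) and 47.6% a peak within 10 kb. Their bodies are shorter, with a median of 932 bp, and held 10.3 peaks per Mb, beside 10.4 in members. That density rests on 5 peaks, 3 in the 56 polymorphic and 2 in the 16 transcribed pseudogenes. The other 199, annotated only as unprocessed, had 0.

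Genes that serve the receptors were counted in the same manner. Of 25 listed genes of olfactory signalling and receptor choice, 24 lie on chromosomes 1 to 19, and 8 of these had a start-site peak (33.3%, beside 24.2% of all coding genes). Among them were Slc24a4, a sodium and calcium exchanger (score 131.07), Kdm1a, a histone demethylase (97.7), and Ldb1 (94.2) and Lhx2 (77.7), regulators that act at receptor gene enhancers. Gnal, the olfactory G protein subunit (76.6), Adcy3, the adenylyl cyclase of the pathway (64.3), and Emx2, a homeobox regulator (64.3), also had one. Omp, a marker of mature olfactory neurons, and the receptor transport genes Rtp1 and Rtp2 had 0 at the start and in the body. A body peak was found in 15 of the 24 (62.5%, beside 48.9%). These genes are longer, with a median of 29082.5 bp against 17629 bp. Per length of body they had fewer peaks, 22.9 per Mb against 28.03 in all coding genes.

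Sequence shared between receptor genes was measured because reads from it may match several places. Of each member's coding 50-mers, a median of 6.24% also occurred in the coding sequence of another gene. Among the 374 members with none shared, 2 had a start-site peak (0.535%) and 24 a body peak (6.42%). Among the 401 with up to 20% shared, 6 (1.496%) and 12 (2.99%) did, and among the 353 with over 20% shared, 5 (1.42%) and 14 (3.97%). Sharing at start sites and between genes was not measured, and the part of shared sequence in the counts was not tested. Neither the read length nor the handling of reads with several matches is stated in the labels.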

How the data were processed

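Per the submitters' processing notes, the authors used Bowtie 1.1.2 and the mm10 assembly. Which peak caller was used, and at what threshold, is not stated in the sources used here. The authors' deposited list gives 76546 peaks, each with a score of at least 50, which was used only to describe and rank peaks within the list. Positions were set against GENCODE M21 and are counted from 1. A peak was placed by its midpoint, and densities are midpoints per Mb. Sequence on chromosomes 1 to 19 ran from the first to the last gene or peak without stretches of 500 kb or more that hold neither. GC content came from annotated transcripts, and start windows from RefSeq (GRCm38.p6).

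Genes were named by rule: members with a start-site peak, the 10 with the largest covered share and the 10 with the most peaks within 10 kb, the 5 strongest peaks, cluster ends, extreme clusters and a list of 10 receptors. Olfr94, the coding comparison, further genes with strong body peaks, the cluster next to beta-globin and that linked to the histocompatibility complex were picked after values were seen. The members and lists were chosen with earlier results of these data known. The counting by place was tested on simulated peaks. Alternatives covered the windows, overlap rule, score, cluster distance and start definition. Software was Python 3.11.15 with matplotlib 3.10.9, scipy 1.17.1, pandas 2.3.3 and numpy 2.4.6. A listed signalling gene is counted but not reported here by name.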

Additional observations from a re-analysis of the deposited data

Results flagged for a closer look

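Olfactory receptor genes on X lay outside the comparisons. The span of 5 of them, from Olfr1320 to Olfr1324 (756 kb), held 33 peaks at 43.6 per Mb, above the 21.02 per Mb of X as a whole. Of these 5 genes, 0 had a peak at the start or in the body. The other 2 coding members on X, in a span of 28.4 kb, had 0 peaks.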

How the results depend on the processing

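With 1 library, no replicate could be left out, and no paired analysis was possible because the 2 libraries are not replicates of groups and only 1 was analysed. Members with a start-site peak numbered 0 with a window of 500 bp, 38 with 2 kb, 23 with any annotated transcript start, 20 with an overlap of at least 1 bp and 7 with peaks above the median score, against 13; the share of all coding genes ran from 11.0% to 31.6% and was above that of the members in each. Members with a body peak numbered 26 when only peaks over the median score were used, and 514 with 10 kb added on each side, against 50. Peaks above the median score gave 6.27 per Mb in member bodies, 12.3 in other genes, 31.3 between genes and 22.3 in all, against 15.1 on chromosomes 1 to 19, so bodies of other genes lay below that value where they had lain above it. A smaller or larger window and fewer peaks change these values by construction; for the other start sites and the overlap rule the cause was not tested. Body density was 9.76 per Mb without the 2 members over 100 kb, an alternative added after the data were seen. Of 53 alternative values, 42 stayed within the counting interval or within 1.5 times. Depth and the input were not analysed here, so weak peaks cannot be weighed against background.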
